A study of Mus musculus with 6 samples.

Results

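The genes described here supply glutathione and thioredoxin, use them against peroxides and reactive chemicals, or answer to the transcription factor NRF2. They were measured by RNA sequencing of squamous carcinomas of the oesophagus in mice of strain C57BL/6. The members were 67 of the 41253 gene symbols in the deposited files, chosen by name. They were the alpha, kappa, mu, omega, pi and theta glutathione transferases, the glutathione peroxidases and the peroxiredoxins. The aldo-keto reductases 1a to 1e and 17 further genes spelled out singly completed the list. The choice went by name and used no measured value as a criterion, but it was made with earlier results of these data known. Tumours of every group had been induced with 4NQO, a quinoline carcinogen, in the drinking water, starting at 6 weeks of age and lasting 16 weeks. A follow-up of 12 weeks came after the treatment in both groups. One group was wild type (Ptpro+/+) and the other was labelled as lacking Ptpro (Ptpro-/-), the gene of a receptor-type tyrosine phosphatase, with 3 libraries each. The design text gives an age of 34 weeks, while mice that lost much weight were killed earlier, per the labels. The sources used here do not give how the allele was made, or in which cells. That the 3 libraries of a label are 3 mice rests on the design text, and if they were not, the p-values measure only the spread between these samples.

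Glutathione is a small thiol built from cystine-derived cysteine, glutamate and glycine. Glutathione peroxidases spend it on peroxides, glutathione transferases attach it to electrophiles, and glutathione reductase restores it with NADPH. The thioredoxin system runs beside it, with peroxiredoxins that remove peroxides, sulfiredoxin that repairs them and thioredoxin reductase that recharges thioredoxin. NRF2, encoded by Nfe2l2, is held low by KEAP1 and, when electrophiles or oxidants disable KEAP1, drives many of these genes through antioxidant response elements. In squamous carcinomas this pathway is known for mutations that leave NRF2 active.

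The libraries held between 25745240 and 39827467 reads on annotated transcripts. Ptpro itself ran against the labels, at 5.05, 0.359 and 2.39 CPM under the WT label and 30.3, 42.8 and 50.6 CPM in those labelled Ptpro-KO (edgeR adjusted p = 0.0617). CPM are the reads of a gene relative to the library total after scaling, on a common scale for all libraries. Every direction below is therefore between libraries as labelled. The squamous markers that define this tumour type were present in every library but lower under the Ptpro-KO label: 7 basal markers summed to 21684 to 29560 CPM in libraries labelled WT and 9149 to 12164 CPM in the others, and 9 suprabasal markers to 41048 to 56610 and 13239 to 19396 CPM. Of these markers, 3 of 7 and 5 of 9 were called lower. Simple and glandular epithelial markers (5 of 5 tested called higher) summed to 33.9 to 80.1 and 762.5 to 1471 CPM. Sums for macrophage markers were 81.5 to 353 against 613 to 1259 CPM and for fibroblast markers 345 to 1858 against 2924 to 4614 CPM. Of these markers, 0 of 8 and 2 of 6 tested were called higher. The fibroblast markers Dcn and Lum overlapped between labels, and the other fibroblast markers did not. The 6 neutrophil markers summed to 1435 to 3231 against 224 to 1136 CPM, nearly all of it S100a8 and S100a9, which squamous epithelium also expresses, while Cxcr2 stood at 19.1, 17.9 and 16.3 against 28.7, 23.4 and 15.9 CPM. Skeletal muscle markers ranged from 53.6 to 11535 CPM over the 6 libraries, with overlap between labels. The library labelled Ptpro-KO replicate 3 held 15438 CPM of 6 gastric epithelial markers, against 0.142 to 29.8 CPM in the other 5, and the 3 libraries labelled WT held no read of Pgc or Gkn2. The library labelled Ptpro-KO replicate 2 held 780.5 CPM of 4 thyroid markers, against 1.32 to 26.5 CPM elsewhere. The part of these markers in the results below was not tested, and in bulk tissue fewer cells of a type and less RNA per cell cannot be told apart.

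Of the 67 members, 59 had enough reads to be tested and 8 did not. Among the tested, 7 were called lower under the Ptpro-KO label and 1 was called higher. The call was an adjusted p under 0.05 in edgeR's quasi-likelihood test over 17663 genes. The lower genes were the glutathione synthesis subunit Gclm, the glutaredoxin Glrx, the glutathione transferases Gstm1, Gstm6, Gstp1 and Gstp2, and the peroxiredoxin Prdx1. The higher one was Gsr, glutathione reductase. The 7 lower members were 11.9% of those tested, where 2.29% of all genes were called lower, and the 1 higher member was 1.69%, where 1.81% of all genes were called higher. The difference in log2 fold change was below 0 for 37 members and above 0 for 22, with a median of -0.42 against 0.03 over all genes tested.

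**Figure D1:**
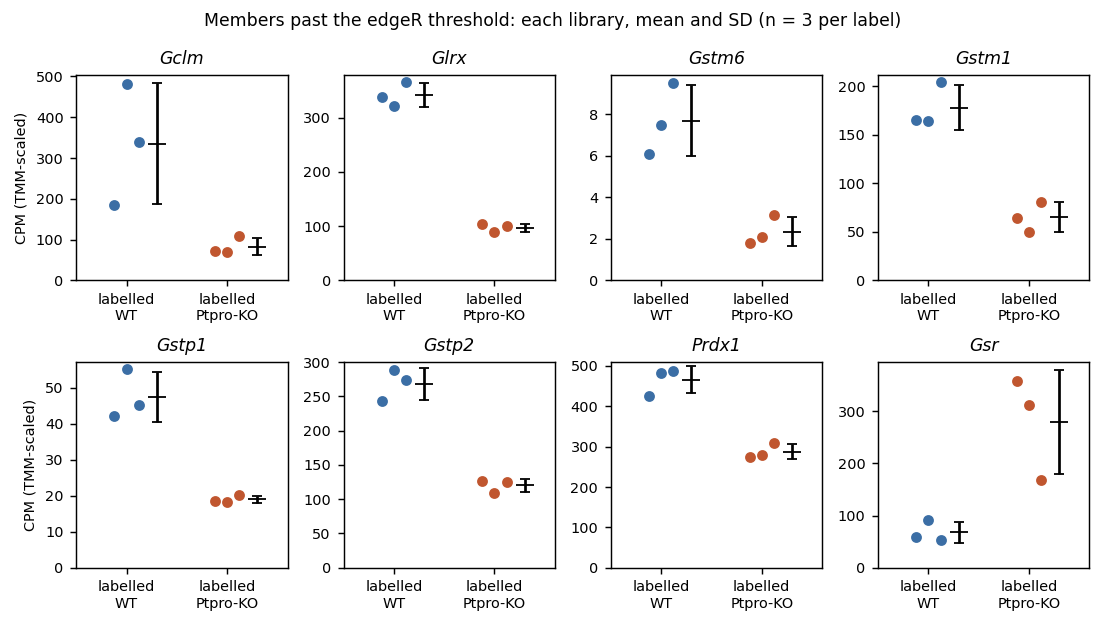
TMM-scaled CPM (vertical axes, from 0) of the 8 members past the edgeR threshold, with 1 point per library by label, and the mean and SD of 3 libraries as a bar at the side of each group. In all 8 panels the 3 points of one label lie entirely to one side of the other 3, and only Gsr is higher under the Ptpro-KO label.

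A wider count, that of genes whose 3 values under one label all lay beyond all 3 of the other, gave 22 members lower (37.3%, against 15.7% of all genes) and 8 higher (13.6%, against 16.8%). The other 29 overlapped. By unadjusted edgeR p under 0.05, 23 members were lower (39.0%, against 11.3% of all genes) and 7 higher (11.9%, against 13.7%). Nfe2l2 itself, with a negative difference, had an edgeR adjusted p between 0.05 and 0.1. The calls depended on single libraries. When WT replicate 2, replicate 3 of that label or replicate 2 labelled Ptpro-KO was left out, edgeR called 0 members and 0 genes in all. At an unadjusted p under 0.05, 19, 20 and 24 members were then lower (32.2%, 33.9% and 40.7%, against 8.16%, 8.15% and 10.7% of all genes). DESeq2 called 22 members lower and 4 higher, where it called 8.36% and 9.57% of all genes.

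**Figure D2:**
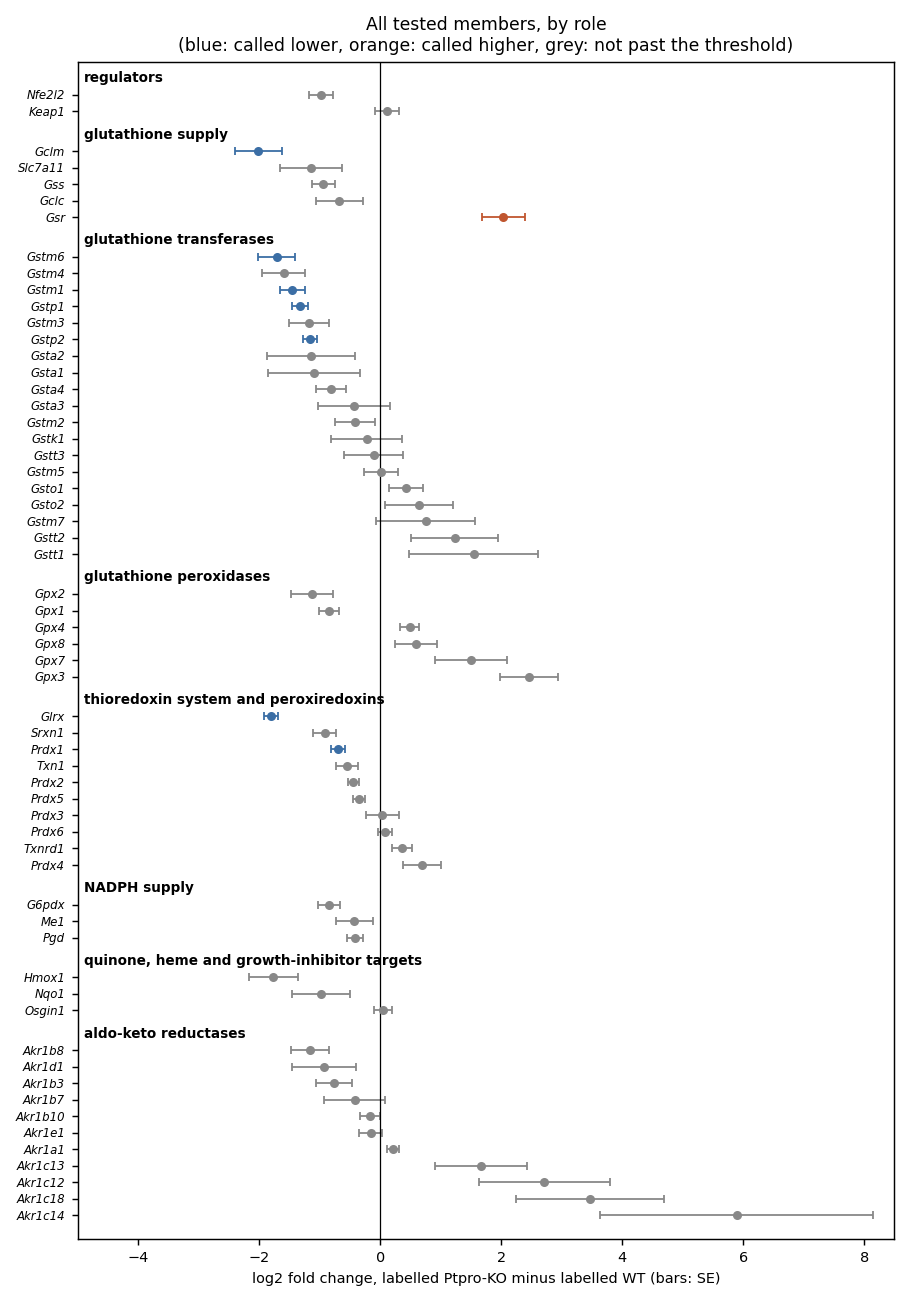
Log2 fold change (horizontal axis, Ptpro-KO label minus WT label) with its SE for the 59 tested members, in blocks by role. Blue points were called lower, the orange point (Gsr) higher, and grey points did not pass the threshold.

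The promoters of the members called lower are shown where they carry letters that pathway factors are known to bind. RefSeq promoters (GRCm38.p6, from 250 bases before to 50 bases after a gene's start) were matched by symbol for 59 members, all but Gsr, Gclc, Hmox1, Prdx6, Gsta4, Gstt2, Akr1b3 and Akr1c20. They were searched on both strands for the antioxidant response element core TGACNNNGC and for the AP-1 type motif TGANTCA, which can overlap each other. The first motif was in 13 of the 59 members (22%) and in 14% of all 27025 genes with such a window, and the second in 8 members (13.6%) and 8.97% of all genes. Among the 7 members called lower, Gclm and Prdx1 held the first motif, and Glrx, Gstp1, Gstp2 and Prdx1 the second. The stretches below show those matches in the genes called lower, then those of 2 NADPH suppliers, Me1 and G6pdx, and of the regulator Nfe2l2. Not shown are first-motif matches in Akr1c19, Akr1cl, Gsta3, Gstm5, Gstm7, Pgd, Srxn1 and Txnrd1, and second-motif matches in Gstm5, Osgin1 and Srxn1. Among these genes, Pgd and Srxn1 were separated downward and Txnrd1 upward, and the others overlapped between labels or were not tested. Capitals mark the matched letters, and each stretch is written along the gene's own strand.
Gclm: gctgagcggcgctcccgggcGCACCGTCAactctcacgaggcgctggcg
Prdx1: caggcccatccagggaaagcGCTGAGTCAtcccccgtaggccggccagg
Glrx: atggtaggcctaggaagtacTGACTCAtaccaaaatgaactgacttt
Gstp1: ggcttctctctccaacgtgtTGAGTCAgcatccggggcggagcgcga
Gstp2: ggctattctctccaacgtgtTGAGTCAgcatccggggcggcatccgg
Me1: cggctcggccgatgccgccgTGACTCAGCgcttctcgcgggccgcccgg
G6pdx: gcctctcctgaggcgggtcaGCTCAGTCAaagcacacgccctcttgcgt
Nfe2l2: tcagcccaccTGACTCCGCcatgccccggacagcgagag

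The Gclm stretch is chr3:122245403-122245451 on the plus strand, and its match lies on the opposite strand, starting 134 bases before the gene's start. The Prdx1 stretch is chr4:116685446-116685494 (plus strand, 133 bases before the start), where both motifs overlap, and a second AP-1 type match stands 237 bases before the start. The Glrx stretch is chr13:75839767-75839813 (plus strand). Gstp1 and Gstp2 carry the same 7 letters at chr19:4037960-4038006 and chr19:4042284-4042330, both on the minus strand, 74 and 89 bases before their starts. Me1 (chr9:86695892-86695940), G6pdx (chrX:74428909-74428957) and Nfe2l2 (chr2:75704875-75704913) are on the minus strand. Over the members with a promoter window, the response element core was in 6 of the 20 whose groups were separated downward (30%) and in 5 of the 32 other tested ones (15.6%). The AP-1 type motif was in 5 of the 20 (25%) and in 3 of the 32 (9.38%). These matches are letters in a window of fixed length, and binding was not measured.

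The regulator of the pathway was itself lower in every library labelled Ptpro-KO, without passing the threshold of edgeR. Nfe2l2, which encodes NRF2, stood at 289, 323 and 415 CPM under the WT label and at 149.8, 161 and 209 CPM in those labelled Ptpro-KO. The groups did not overlap, and the means were 342 ± 65.5 and 173 ± 31.3 CPM (SD, n = 3 each; log2 fold change -0.99, SE 0.20; edgeR adjusted p = 0.0558). Of 18 alternative analyses, 3 called Nfe2l2, DESeq2 among them. Keap1, the adaptor that marks NRF2 for destruction, overlapped between labels, with 54.2, 65.8 and 43.3 CPM against 48.9, 64.9 and 62.5 CPM (log2 fold change 0.11, SE 0.19; edgeR adjusted p = 0.764). Per transcript length (deposited RPKM), the Keap1 level was 0.130, 0.140 and 0.072 of the Nfe2l2 level under the WT label and 0.222, 0.269 and 0.203 in the others. These ratios did not overlap, and Keap1 transcripts were in each library the rarer of the pair.

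Of the 5 glutathione supply members, Gclm was called lower, Gsr was called higher and 3 did not pass the test. These calls were 20% each way, where 2.29% of all genes were called lower and 1.81% higher. In 2 the groups were separated downward (40%, against 15.7% of all genes) and in 1 upward (20%, against 16.8%). Gclm encodes the modifier subunit that raises the activity of glutamate-cysteine ligase, the rate-limiting enzyme of glutathione synthesis. Its values were 185, 482 and 339.8 CPM under the WT label and 72.3, 68.8 and 108 CPM in those labelled Ptpro-KO. It fell from 336 ± 148 to 82.9 ± 21.5 CPM (SD, n = 3 each), which is 4.05-fold (log2 fold change -2.02, SE 0.39; edgeR adjusted p = 0.0492). The lowest library labelled WT was replicate 1, still above all 3 libraries labelled Ptpro-KO. Gclm lies at chr3:122245557-122270732 of GRCm38 (mm10).

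The catalytic subunit of the same enzyme overlapped between labels. Gclc stood at 98.9, 203 and 134 CPM against 56.3, 133 and 83.8 CPM (log2 fold change -0.68, SE 0.39; edgeR adjusted p = 0.341). By RPKM, the Gclm level was 1.40, 1.77 and 1.88 times that of Gclc in the libraries labelled WT, and 0.984, 0.398 and 0.980 times in those labelled Ptpro-KO, without overlap. Gss, glutathione synthetase, completes the molecule, and was at 67.2, 98.1 and 74.8 CPM against 36.1, 39.2 and 49.9 CPM. Its groups did not overlap (log2 fold change -0.94, SE 0.19; edgeR adjusted p = 0.0587). Slc7a11, the cystine-glutamate antiporter that brings in cystine, spread widely within each label, at 338, 809.8 and 468 CPM against 131, 402 and 198 CPM (log2 fold change -1.14, SE 0.51; edgeR adjusted p = 0.233). In both Slc7a11 and Gclc, replicate 2 was the highest library of its label.

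Gsr was the only one of the 59 tested members called higher. It encodes glutathione reductase, which returns oxidised glutathione to its working form, and lies at chr8:33652523-33698163. The libraries labelled WT held 59.6, 91.1 and 53.6 CPM and those labelled Ptpro-KO 358, 312 and 168 CPM. It rose from 68.1 ± 20.1 to 279.4 ± 99.0 CPM (SD, n = 3 each), 4.10-fold (log2 fold change 2.04, SE 0.35; edgeR adjusted p = 0.0413), with no overlap. By RPKM the Gsr level was 0.552, 0.325 and 0.272 of the Gclm level in the libraries labelled WT, and 8.30, 7.58 and 2.63 times that level in those labelled Ptpro-KO. Gsr was thus below Gclm in all 3 libraries labelled WT and above it in all 3 others. Of the 18 alternatives, 10 called Gsr and 4 called Gclm, with adjusted p from 1.49e-06 to 0.173 for Gsr and from 7.00e-06 to 0.176 for Gclm. The lowest came from DESeq2 in both.

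**Figure D3:**
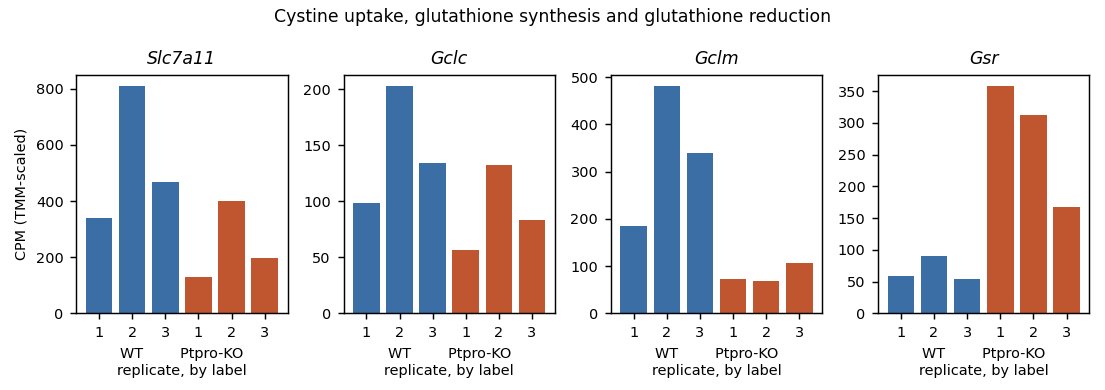
TMM-scaled CPM (bars, vertical axes from 0) of Slc7a11, Gclc, Gclm and Gsr in each of the 6 libraries, by label (blue WT, orange Ptpro-KO) and replicate. Slc7a11 and Gclc overlap between labels, Gclm is lower in all 3 libraries labelled Ptpro-KO, and Gsr is higher in all 3.

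The glutathione transferases are the largest family of members, with 20 genes, 19 of them tested. They join glutathione to carcinogens and to products of lipid peroxidation. Of the 19, 4 were called lower (21.1%) and 0 higher, where 2.29% and 1.81% of all genes were called. Log2 fold changes were negative in 13 and positive in 6, and the median was -0.43. In 7 the groups were separated downward (36.8%, against 15.7% of all genes), in 0 upward (against 16.8%). At an unadjusted edgeR p under 0.05, 7 were lower (36.8%, against 11.3% of all genes) and 0 higher (against 13.7%). Limma-voom called 4 lower and 0 higher, where it called 385 and 285 of all 17663 genes. DESeq2 called 7 and 0, where it called 8.36% and 9.57% of all genes. Scaling by library totals alone turned 1 sign, that of Gstt3.

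Both pi class genes were called. Gstp2 stood at 243, 288 and 274 CPM against 127, 109 and 125 CPM, with means of 268 ± 23.0 and 120.1 ± 9.98 CPM and hence a fall (SD, n = 3 each; log2 fold change -1.16, SE 0.12; edgeR adjusted p = 0.0149). Gstp1 stood at 42.2, 55.4 and 45.2 CPM against 18.6, 18.3 and 20.2 CPM (log2 fold change -1.32, SE 0.14; edgeR adjusted p = 0.0139). Both genes are neighbours on chromosome 19, at chr19:4035407-4037985 and chr19:4040285-4046023. Their transcripts are near copies: 62.3% of the 50-base windows of Gstp1 also occur in Gstp2. The split of reads between the pair is therefore uncertain. By RPKM from the transcript counts, Gstp1 was 0.168 to 0.196 of Gstp2 under the WT label and 0.149 to 0.171 in the others, while the authors' deposited gene table of FPKM put Gstp1 above Gstp2, at means of 427 and 317 under the WT label and 187 and 143.5 under the other. In both tables both genes were lower under the Ptpro-KO label.

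The mu class was divided. Gstm1, the most abundant of the 7 mu genes by RPKM, stood at 165, 165 and 204 CPM against 64.3, 50.3 and 80.6 CPM (log2 fold change -1.45, SE 0.20; edgeR adjusted p = 0.0287). Gstm6, a rare transcript, stood at 6.09, 7.45 and 9.50 CPM against 1.80, 2.09 and 3.14 CPM (log2 fold change -1.71, SE 0.31; edgeR adjusted p = 0.0434). Both fell, with no overlap, and both lie in the mu gene cluster of chromosome 3, at chr3:108012255-108017973 and chr3:107938847-107943749. Gstm4 was separated too, at 4.90, 9.25 and 11.7 CPM against 3.16, 2.42 and 2.98 CPM, and did not pass the test (log2 fold change -1.60, edgeR adjusted p = 0.0673). Gstm3 was the fourth separated mu gene (-1.18, edgeR adjusted p = 0.101), and 10.9% of the 50-base windows of Gstm1 and 15.8% of those of Gstm3 occur in another member, mostly in each other. The remaining mu genes overlapped between labels: Gstm2 at -0.42, Gstm5 at 0.02 and Gstm7 at 0.75 on the log2 scale. Gstm7 turned to -0.71 without Ptpro-KO replicate 3, the library with gastric markers.

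The alpha class, whose members detoxify lipid aldehydes, had negative values in 4 of 4 genes under every scaling tried, with 0 called by edgeR. Of these, 1 was lower at an unadjusted edgeR p under 0.05 (25%, against 11.3% of all genes), and DESeq2 called Gsta4. Gsta4, best known for conjugating 4-hydroxynonenal, stood at 845, 1364 and 1448 CPM against 679, 819 and 585 CPM, without overlap (log2 fold change -0.81, SE 0.25; edgeR adjusted p = 0.122). Gsta1 stood at 95.4, 282 and 276 CPM against 27.5, 81.0 and 198 CPM, and Gsta2 at 138, 393 and 376 CPM against 40.3, 109 and 261 CPM. In both genes WT replicate 1 lay below Ptpro-KO replicate 3, so the groups overlapped (log2 fold changes -1.09 and -1.15, edgeR adjusted p = 0.425 and 0.388). Nearly identical stretches join this pair as well, with 44.6% of the windows of Gsta1 found in Gsta2. The single kappa gene Gstk1 (-0.22) and the 3 tested theta genes (-0.11 to 1.54) overlapped between labels, and the 3 theta genes were highest in Ptpro-KO replicate 3, at 6.85 to 20.4 CPM.

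Gsto1 led the transferases among the members by level, and its difference was positive and not called. It encodes an omega transferase, which reduces dehydroascorbate more than it conjugates. Its values were 1407, 1901 and 1459.9 CPM under the WT label and 1821, 2994 and 1574 CPM in the others, with overlap (log2 fold change 0.42, SE 0.29; edgeR adjusted p = 0.412). RPKM were summed over the 20 transferases among the members. The sums were 2699, 4399 and 4013 under the WT label and 2694, 4185 and 3028 under the Ptpro-KO label, so the totals overlapped. The shares of Gsto1, Gsta4 and Gstp2 in that total did not overlap, while those of Gsta1 and Gsta2 did. Gsto1 took 40.9%, 36.1% and 29.6% of it under the WT label and 58.7%, 65.9% and 47.2% under the other, whereas Gsta4 took 30.02%, 31.6% and 36.03% against 26.8%, 21.9% and 21.4%. Gstp2 took 10.7%, 8.29% and 8.46% against 6.23%, 3.61% and 5.65%. Shares of one total move against each other by construction, and no test was made on them.

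**Figure D4:**
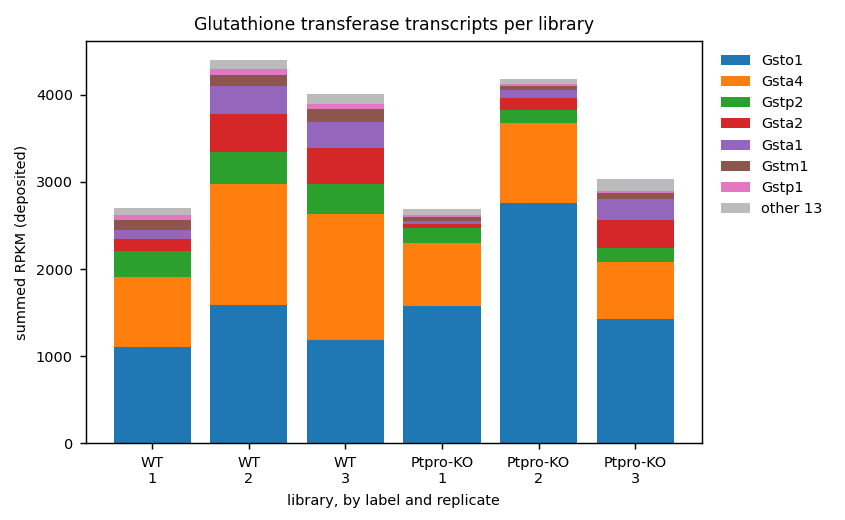
Summed RPKM (vertical axis, from 0) of the 20 glutathione transferases among the members in each library, stacked by gene. The 7 most abundant are in colour and the others in grey. The totals run from 2694 to 4399 with overlap between labels, and the Gsto1 section is the largest one in 5 of the 6 libraries (not in WT replicate 3), at 29.6% to 40.9% of the total under the WT label and 47.2% to 65.9% under the other.

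The glutathione peroxidases, selenium or cysteine enzymes that reduce peroxides at the cost of glutathione, had 0 calls by edgeR among the 6 tested genes of 8. Over all genes, edgeR called 2.29% lower and 1.81% higher. At an unadjusted edgeR p under 0.05, 2 were lower (33.3%, against 11.3% of all genes) and 3 higher (50%, against 13.7%). DESeq2 called 2 lower and 1 higher, where it called 8.36% and 9.57% of all genes. Limma-voom called 1 and 1, where it called 385 and 285 of all 17663 genes. Gpx1, the abundant cytosolic enzyme, stood at 343, 489 and 359 CPM against 219.9, 220.4 and 223 CPM, without overlap (log2 fold change -0.84, SE 0.16; edgeR adjusted p = 0.0506, 3 of 18 alternatives below 0.05). Gpx2, an epithelial form, stood at 231, 428 and 320.4 CPM against 90.4, 188 and 169.5 CPM (log2 fold change -1.13, SE 0.35; edgeR adjusted p = 0.122). The difference in Gpx2 was separated between labels as well. Gpx1 and Gpx2 thus had their 3 lowest values under the Ptpro-KO label.

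The secreted form went the other way. Gpx3, the plasma peroxidase, stood at 9.37, 3.67 and 12.2 CPM against 45.9, 59.8 and 33.2 CPM (log2 fold change 2.46, SE 0.48; edgeR adjusted p = 0.0505, 8 of 18 alternatives below 0.05). Its groups lay far apart, and WT replicate 2, the lowest, also had the lowest sums of macrophage (81.5 CPM), fibroblast (345 CPM), skeletal muscle (53.6 CPM) and liver (1.71 CPM) markers. Ptpro-KO replicate 2, the highest in Gpx3, held 968, 4614, 4947 and 2.91 CPM of these markers in the same order. Muscle markers were highest in Ptpro-KO replicate 1, at 11535 CPM, and liver markers in Ptpro-KO replicate 3, at 89.9 CPM. Whether Gpx3 follows any of them was not tested. Gpx7, of the endoplasmic reticulum, stood at 2.32, 0.399 and 1.14 CPM against 3.63, 4.18 and 3.19 CPM (edgeR adjusted p = 0.192), again lowest in WT replicate 2. Gpx4, which protects membrane lipids, was 82.9 ± 12.5 against 116 ± 14.97 CPM (SD, n = 3 each; log2 fold change 0.49; edgeR adjusted p = 0.129), without overlap. Gpx8 overlapped (0.59). Gpx5 and Gpx6 had 0 reads in all 6 libraries, which allows up to 0.0704 to 0.12 CPM per library (3 reads, counting error only).

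The thioredoxin and peroxiredoxin group, with glutaredoxin, had 10 tested members. Of these, 2 were called lower (20%) and 0 higher, where 2.29% and 1.81% of all genes were called. In 6 the groups were separated downward (60%, against 15.7% of all genes) and in 1 upward (10%, against 16.8%). At an unadjusted edgeR p under 0.05, 6 were lower (60%, against 11.3% of all genes) and 0 higher (against 13.7%). Limma-voom called 2 lower and 0 higher, where it called 385 and 285 of all 17663 genes. DESeq2 called 6 and 0, where it called 8.36% and 9.57% of all genes. Glrx encodes glutaredoxin, which removes glutathione bound to protein thiols. It had the smallest adjusted p of all members. Its values were 339, 322 and 366 CPM under the WT label and 104, 89.3 and 99.6 CPM in those labelled Ptpro-KO. It fell from 342 ± 21.9 to 97.5 ± 7.35 CPM (SD, n = 3 each), 3.51-fold (log2 fold change -1.81, SE 0.11; edgeR adjusted p = 0.0125). Of the 18 alternatives 15 called it, with adjusted p from 2.17e-52 (DESeq2) to 0.0590. Glrx lies at chr13:75839868-75850154.

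Peroxiredoxins pass electrons from thioredoxin to peroxides, and of the 6 only Prdx1 was called. Prdx1, the main cytosolic form, stood at 427, 482 and 487 CPM against 275, 278.6 and 310.2 CPM (log2 fold change -0.69, SE 0.12; edgeR adjusted p = 0.0403), at chr4:116685544-116700822. Its share of the summed peroxiredoxin RPKM was 60.0 ± 1.68% under the WT label and 50.2 ± 1.17% under the other (SD, n = 3 each), and that sum was 880.3 ± 66.2 against 718 ± 40.2. Prdx2 (-0.45, edgeR adjusted p = 0.0600) and the mitochondrial and peroxisomal Prdx5 (-0.34, edgeR adjusted p = 0.106) were separated downward and did not pass. Prdx3, the mitochondrial form (0.03), Prdx4, of the secretory pathway (0.69), and Prdx6 (0.08) overlapped between labels. Prdx4 was highest in Ptpro-KO replicate 3, at 48.3 CPM against 17.05 to 25.6 CPM in the other 5.

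The partners of the peroxiredoxins were unequal. Srxn1, the sulfiredoxin that rescues overoxidised peroxiredoxins, stood at 78.8, 119 and 123 CPM against 56.6, 55.0 and 58.0 CPM, without overlap (log2 fold change -0.92, SE 0.18; edgeR adjusted p = 0.0539). Txn1, thioredoxin, stood at 564, 587 and 740.2 CPM against 434, 357 and 501 CPM (log2 fold change -0.55, SE 0.18; edgeR adjusted p = 0.138). Txnrd1, the cytosolic reductase that recharges thioredoxin, stood at 82.4, 68.7 and 54.4 CPM against 83.6, 91.8 and 89.5 CPM (log2 fold change 0.37, SE 0.16; edgeR adjusted p = 0.236). Neither gene passed, and the nearest values of the Txnrd1 groups were 82.4 and 83.6 CPM. By RPKM, Txnrd1 was 0.045, 0.036 and 0.023 of Txn1 under the WT label and 0.059, 0.079 and 0.055 under the other.

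NADPH, the electron source of both reductases, is supplied by 3 members, of which edgeR and limma-voom called 0. Of the 3, 2 were lower at an unadjusted edgeR p under 0.05 (66.7%, against 11.3% of all genes). DESeq2 called 2 lower, where it called 8.36% of all genes lower. G6pdx, the entry enzyme of the pentose phosphate pathway, stood at 177, 270.4 and 261 CPM against 129, 129 and 136 CPM, without overlap (log2 fold change -0.85, SE 0.18; edgeR adjusted p = 0.0602). Pgd, the next oxidative enzyme of that pathway, was 163 ± 23.6 against 122 ± 4.70 CPM (SD, n = 3 each; log2 fold change -0.41; edgeR adjusted p = 0.128), also without overlap. Me1, the cytosolic malic enzyme, overlapped between labels (log2 fold change -0.43; edgeR adjusted p = 0.442), and its lowest library by far was Ptpro-KO replicate 2, at 51.7 CPM.

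The 3 remaining targets often read as gauges of NRF2 differed from one another. Of the 3, edgeR and limma-voom called 0, DESeq2 called Hmox1 lower, and 1 was lower at an unadjusted edgeR p under 0.05. Over all genes, DESeq2 called 8.36% lower, and 11.3% were lower at that unadjusted edgeR p. Hmox1, heme oxygenase, stood at 71.0, 205 and 174 CPM against 43.7, 52.0 and 36.1 CPM (log2 fold change -1.77, SE 0.40; edgeR adjusted p = 0.0702), without overlap. Macrophages also express Hmox1, and the summed macrophage markers were higher under the Ptpro-KO label, with 0 of 8 tested called. The part of macrophages in the Hmox1 values was not tested. Nqo1, the quinone reductase, stood at 111, 248 and 160.4 CPM against 40.4, 107 and 116 CPM (log2 fold change -0.98, SE 0.47; edgeR adjusted p = 0.266). Its groups overlapped by a single pair, WT replicate 1 and Ptpro-KO replicate 3. Osgin1, an oxidative-stress-induced growth inhibitor, overlapped between labels, at 10.1 ± 0.946 against 10.5 ± 0.620 CPM (SD, n = 3 each; log2 fold change 0.05, SE 0.15; edgeR adjusted p = 0.881).

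The aldo-keto reductases reduce aldehydes and ketones with NADPH. Of 16 members 11 were tested, and edgeR and limma-voom called 0. At an unadjusted edgeR p under 0.05, 2 were lower (18.2%, against 11.3% of all genes) and 3 higher (27.3%, against 13.7%). DESeq2 called 1 lower and 2 higher, where it called 8.36% and 9.57% of all genes. Akr1a1, the broad aldehyde reductase, was the most abundant by RPKM and had separated groups close together, at 232, 236 and 229 CPM against 271, 259.96 and 276 CPM (log2 fold change 0.21, SE 0.09; edgeR adjusted p = 0.233). All 4 Akr1b genes had negative log2 fold changes under every scaling tried, -0.17 to -1.16 with TMM. The largest was that of Akr1b8, at 124, 183 and 80.9 CPM against 69.7, 55.7 and 48.7 CPM, without overlap (edgeR adjusted p = 0.0973). All 4 tested Akr1c genes, hydroxysteroid dehydrogenases among them, had positive values.

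The Akr1c values rested largely on 1 library. Akr1c14 stood at 0.348, 0.0797 and 0.392 CPM under the WT label and at 0.886, 0.141 and 49.0 CPM in those labelled Ptpro-KO (log2 fold change 5.89, SE 2.25; edgeR adjusted p = 0.177). Akr1c12 and Akr1c13 stood at 24.5 and 14.4 CPM in Ptpro-KO replicate 3, against at most 2.18 and 3.54 CPM in the other 5. That library is the one with 15438 CPM of gastric markers. Without it the log2 fold changes of Akr1c14, Akr1c12 and Akr1c13 were 0.86, 0.57 and 0.63. Akr1c12 and Akr1c13 share 28.6% of their 50-base windows with each other, so reads of one may be listed under the other. Akr1c18 was the opposite case, at 2.21 and 4.25 CPM in Ptpro-KO replicates 1 and 2 and 0.132 CPM in replicate 3, within the 0.0797 to 0.348 CPM of the libraries labelled WT. Akr1c19, not tested, reached 10.2 CPM in Ptpro-KO replicate 3 and at most 0.12 CPM elsewhere. The other 4 untested ones, Akr1c6, Akr1c20, Akr1c21 and Akr1cl, and the untested transferase Gstt4 stayed at or below 1.15 CPM in all 6 libraries.

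**Figure D5:**
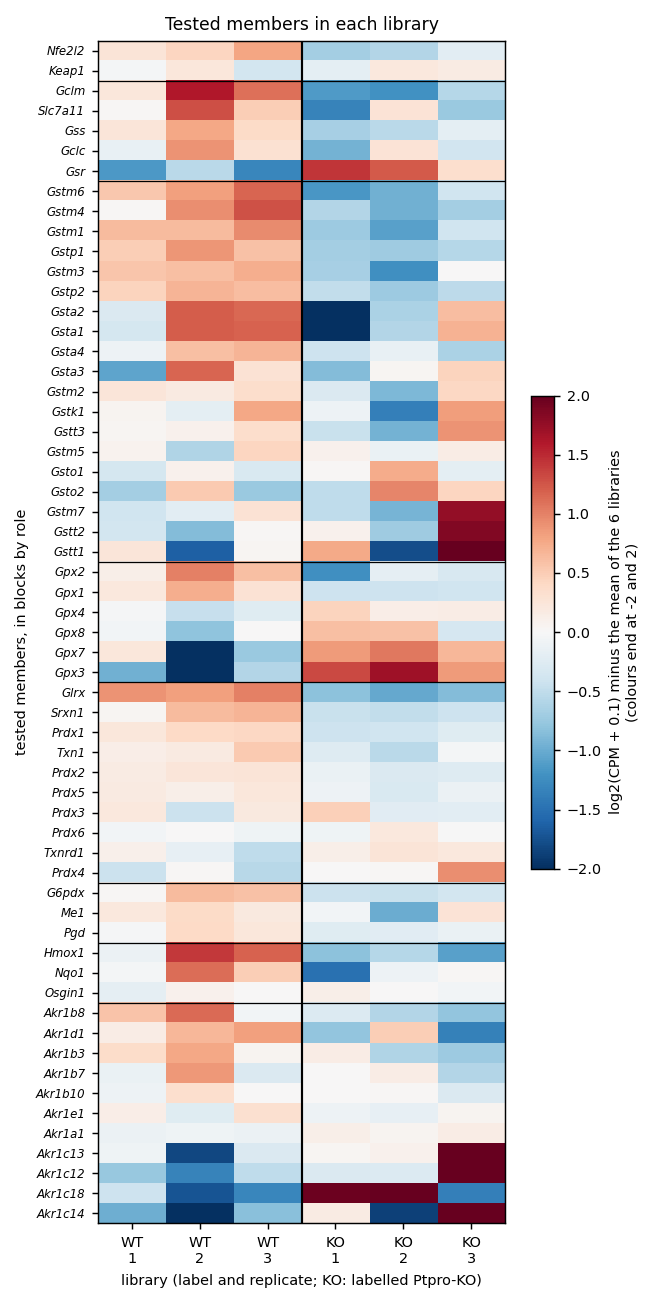
Log2(CPM + 0.1) of each tested member (rows, in blocks by role) minus its mean over the 6 libraries (columns, by label and replicate), with red above and blue below that mean and colours ending at -2 and 2. Many rows are blue under the Ptpro-KO label, Gsr and Gpx3 are red there, and several Akr1c and theta transferase rows are red mainly in Ptpro-KO replicate 3.

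The libraries of a label were not alike over the members. WT replicate 2 held the highest of the 6 values for 21 of the 59 tested members and WT replicate 3 for 15, while WT replicate 1 did so for 0. Ptpro-KO replicate 2 held the lowest value for 18 and Ptpro-KO replicate 1 for 13. Within its own label, Ptpro-KO replicate 3 was the highest library for 31 members and WT replicate 1 the lowest for 30. Library identifiers carry 2 kinds of prefix, whose meaning the sources used here do not give: replicate 1 of each label has one and the other 4 libraries have the other. All 8 called members were fully separated between labels, so their sign within each prefix was fixed in advance and tests nothing about the prefix. Log2 ratios of mean CPM are given for the prefix of replicate 1, then for the other. They were -1.36 and -2.22 for Gclm, 2.59 and 1.73 for Gsr, -1.71 and -1.86 for Glrx and -0.63 and -0.72 for Prdx1.

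Sex was not balanced. By Xist and Y-chromosome reads, 1 mouse labelled WT was female and 2 were male, against 2 and 1 among those labelled Ptpro-KO. A library was read as female where Xist reads outnumbered those of the Y genes. Xist had 23849 to 25873 reads in libraries read as female and 11 to 54 in the others. The Y genes had 3064 to 3911 reads in libraries read as female and 8590 to 15091 in the others. The source of the Y-gene reads in libraries read as female was not tested. Within each sex, 1 label always has a single mouse. The sign of all 8 called members within a sex was fixed by their full separation between labels, and so tests nothing about sex. The log2 ratio for Gclm was -1.04 in females and -2.58 in males, for Gsr 2.14 and 2.10, and for Glrx -1.74 and -1.95. Whether the ratio for Gclm differs between sexes was not tested. With a sex term in the edgeR fit, 3 members were called lower and 0 higher, where 0.691% and 0.362% of all genes were called. The adjusted p of Gsr in that edgeR fit was 0.073.

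Outside the members, 101 further genes of these pathways were listed, and 97 were found and tested. They were regulators, transport and breakdown of glutathione, other glutathione-using, thioredoxin and iron-handling enzymes, and further NRF2 targets. Of the 97, 4 were called lower (4.12%, against 2.29% of all genes) and 1 higher (1.03%, against 1.81%). The median log2 fold change was -0.02, with 49 negative and 48 positive. The 4 were Oplah, 5-oxoprolinase of the glutathione cycle (-1.12, edgeR adjusted p = 0.0136), Hagh, the glyoxalase that frees glutathione from lactoyl-glutathione (-0.88, 0.0183), the gamma-glutamyltransferase Ggt6 (-1.35, 0.0323) and the glucuronosyltransferase Ugt1a7c (-1.12, 0.0404). Slc1a5, a glutamine carrier, was the gene called higher, at 36.9, 39.4 and 37.8 CPM against 78.0, 57.5 and 87.3 CPM (log2 fold change 0.97; edgeR adjusted p = 0.0419). Bach2, a repressor related to the NRF2 antagonist BACH1 (1.26, edgeR adjusted p = 0.0882), and the ferritin heavy chain Fth1 (0.68, 0.0648) came next among the positive values and did not pass.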

How the data were processed

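Total RNA of 6 tumours was sequenced on an Illumina instrument, per the labels. The submitters' processing notes name Bowtie 0.12.2 and the build mm10. Per sample, the authors deposited unnormalised read counts for each Ensembl transcript beside its RPKM, and for the series a table of FPKM per gene. The sources used here do not say how reads shared by several transcripts were assigned or whether strand was kept. Another deposited table, of counts scaled to a common size, was not used, nor were 2 further columns.

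Counts were summed per gene symbol (100249 transcripts), filtered with filterByExpr (its minimum of 10 counts in 3 libraries, and a total of 15), scaled by TMM and tested with edgeR 4.0.16 in R 4.3.3, with the Benjamini-Hochberg threshold at 0.05 over all 17663 genes. Adjusted p-values beside n = 3 come from edgeR, limma 3.58.1 or DESeq2 1.42.0 fits across all genes. SE is the size of a log2 fold change over the root of F. CPM use TMM library sizes; levels between genes use the deposited RPKM, summed per gene. Positions are from GENCODE M21 (GRCm38, the assembly of mm10). Only the steps of the main edgeR fit were tried on simulated counts with known fold changes. Replicate libraries were no duplicates (chi-square per degree of freedom of 66.9 to 307 over genes with at least 20 reads).

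The members, the list of 101 further pathway genes, the markers and the rules were chosen with earlier results of these data known. Named were the 17 genes spelled out in the member rule, called members, members with a mean of at least 100 CPM, and the 5 largest differences each way above a mean log2 CPM of 1. Of the further genes, the called ones and the 3 with the smallest p each way were named. Other members named in the text were chosen after their values were seen. Alternatives were DESeq2, limma-voom, limma on log2 FPKM with pseudocounts of 0.1 and 1, other scalings and filters, a replicate block, terms for sex and for identifier prefix, and leaving out each library. At these depths the spread between mice, rather than counting error, limits all but the rarest members.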

Additional observations from a re-analysis of the deposited data

How the results depend on the processing

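Under the 18 alternatives, 49 of the 59 tested members kept the sign of their log2 fold change in every one that could test them. The count of members called lower, 7 in the main analysis, was 22 with DESeq2, 4 with library totals only, 4 without a filter, 3 with a sex term and 2 with a replicate block, and 0 to 6 when 1 library was left out (0 without replicate 2 of either label or replicate 3 labelled WT, and 1 without Ptpro-KO replicate 1). The count called higher, 1, was 4 with DESeq2, 2 with RLE, upper-quartile or library-total scaling, limma-voom, a stricter filter or FPKM with either pseudocount, 0 with a prefix term, a sex term or the replicate block, and 0 to 1 with 1 library left out. Over all genes, edgeR called 405 lower and 320 higher in the main analysis. Those counts were 1470 and 1682 with DESeq2, 294 and 630 with library totals only, and 287 and 234 without a filter. With a sex term they were 122 and 64, and with the replicate block 104 and 133. Of the other pathway genes, 4 were called lower. That count was 19 with DESeq2, 2 with the replicate block, 1 with a sex term, and 0 to 3 with 1 library left out. The 1 called higher became 10 with DESeq2, 2 with library totals only, 0 with FPKM at either pseudocount, a sex term or the replicate block, and 0 to 1 with 1 library left out. The other 10 turned sign in at least 1 alternative, and edgeR called none of them: Akr1b7, Gsta3, Gstk1, Gstm5, Gstm7, Gstt3 and Prdx3, not described in full, and Keap1, Prdx6 and Osgin1. Keap1 ran from -0.037 to 0.26 with 1 library left out, Prdx6 from -0.023 to 0.11 and Osgin1 from -0.031 to 0.0996, and Osgin1 was -0.034 and -0.030 with FPKM pseudocounts of 0.1 and 1. The cause of these changes was not tested. Deviations from the label means correlated at 0.539 between the libraries of replicate 1, which share their identifier prefix and sex, and at 0.0803 and -0.243 for the other same-numbered libraries, so the numbers were not taken as pairs. Library totals alone moved the median of all genes from 0.03 to 0.19 on the log2 scale and leaving out the filter to 0.11, and the member medians were then -0.28 and -0.34. Depth limits the rare members: 3 reads correspond to 0.0704 to 0.12 CPM, and Gpx5 and Gpx6 had none.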
